A study of Mus musculus with 16 samples.

Results

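The genes described here are the mitochondrial uncoupling proteins Ucp2 and Ucp3, the pantetheinases Vnn1 and Vnn3, the carnitine palmitoyltransferase Cpt1b, the fatty acid binding protein Fabp3, the lipolysis inhibitor Hilpda, the retinol saturase Retsat, the transcription factor Creb3l3 and the proton channel Otop1. They are 10 of the 50559 gene symbols counted in mouse liver. The first 9 were chosen under the heading of genes outside β-oxidation that the nuclear receptor PPARα is known to induce. Cpt1b, which serves the import of fatty acids for oxidation, was included among them all the same. Otop1 was chosen by its counts in these libraries, for its appearance with the KHK inhibitor only. All 10 were picked with earlier results of these data known, so their direction in the inhibitor group was part of the choice and is described here, not offered as support.

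Liver RNA was sequenced from 16 male C57BL/6J mice, with 4 libraries in each of 4 groups. Their diet began at 6 weeks of age and lasted 10 weeks, with treatment during the final 4. Mice of the LFD group (chow in the labels) and of the HFD group were given a control siRNA against luciferase at 10 mg/kg once every 2 weeks, and methylcellulose alone by gavage. In the HFD + siRNA group, a GalNAc-conjugated siRNA against KHK, a form taken up by hepatocytes, replaced the luciferase siRNA at a dose of 20 mg/kg, with the same gavage. Mice of the HFD + Inhib group kept the luciferase siRNA and were gavaged with PF-06835919, a KHK inhibitor that reaches the whole body, at 15 mg/kg in methylcellulose. Gavage was given 2 times a day in all groups. No group received the inhibitor without the control siRNA, and none received the KHK siRNA together with the inhibitor. The study also injected mice with saline or insulin before tissue collection, and the labels used here do not say which library had which injection, so a difference between injections could not be checked. Totals per library ran from 24317111 to 35820234 expected counts, with medians of 28920038 (LFD), 26714482 (HFD), 30485808 (HFD + siRNA) and 30468092 (HFD + Inhib).

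PPARα is a fatty acid-activated receptor that pairs with RXR and switches on genes of fatty acid uptake, oxidation and ketone production in hepatocytes, most of all in fasting or with fibrate drugs. Beside the oxidation enzymes, it is known to induce genes with other roles, such as Vnn1, which frees pantothenic acid from pantetheine, and Creb3l3, which encodes the liver transcription factor CREBH. Several genes of the set are better known from other tissues: Ucp3, Cpt1b and Fabp3 from skeletal and heart muscle, and Otop1 from the vestibular system and sour taste cells.

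The targeted gene was examined first. Khk, which encodes ketohexokinase, the enzyme that phosphorylates fructose, stood at 266 ± 59.9 CPM (counts scaled to library totals with TMM factors; SD, n = 4) in LFD and 264 ± 39.8 in HFD. It was 12.7 ± 3.85 CPM in HFD + siRNA, a log2 fold change of -4.38 ± 0.23 (SE) against HFD with an adjusted p of 1.9e-08. In HFD + Inhib it was 120 ± 24.1 CPM, a log2 fold change of -1.14 ± 0.20 against HFD (adjusted p = 7.5e-04). Each siRNA library lay between 9.14 and 18.1 CPM and each inhibitor library between 94.6 and 152 CPM, so neither group overlapped HFD (233 to 322 CPM).

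The livers differed in how the 10 genes were used. Retsat, Vnn1 and Cpt1b were many times higher in HFD + Inhib than in any other group. Ucp3, Fabp3 and Otop1 were at or near 0 in LFD, HFD and HFD + siRNA and present in every HFD + Inhib library. Ucp2, Vnn3, Hilpda and Creb3l3 differed less between the groups.

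**Figure D1:**
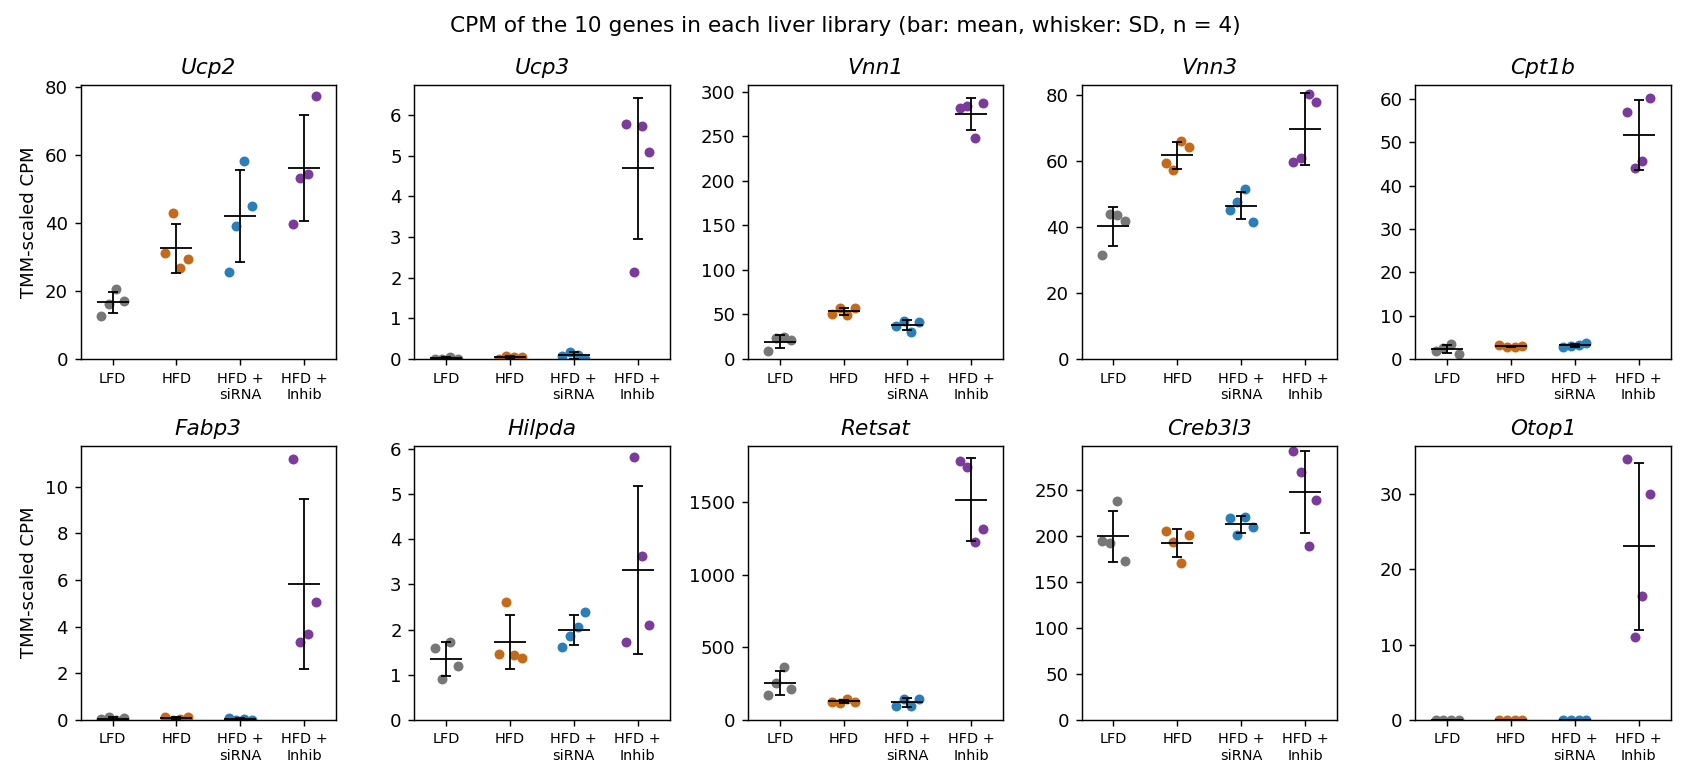
TMM-scaled CPM of each of the 10 genes (vertical axes, from 0, with a scale of their own) in the 4 groups (horizontal axes). Each point is 1 library, the bar is the mean and the whisker the SD of 4 libraries. The 4 HFD + Inhib libraries lie above all others for Ucp3, Vnn1, Cpt1b, Fabp3, Retsat and Otop1, and overlap HFD for Ucp2, Vnn3, Hilpda and Creb3l3.

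All 10 genes passed the filter on low counts. Ucp3, Fabp3 and Otop1 passed it only through the HFD + Inhib libraries and so had to differ there. Counts over genes are therefore given for the other 7: Ucp2, Vnn1, Vnn3, Cpt1b, Hilpda, Retsat and Creb3l3. In HFD versus LFD, 3 of the 7 were higher (adjusted p under 0.05), where 9.58% of the 18335 tested genes were, and 1 was lower, where 8.80% were. The median log2 fold change of the 7 was 0.36, beside -0.01 over all genes tested. In HFD + siRNA versus HFD none was higher and 1 was lower, where 5.20% of all genes were higher and 6.55% lower, and their median was 0.13 beside 0.02. In HFD + Inhib versus HFD, 5 of the 7 were higher and none lower, beside 9.80% and 8.42% of all genes, with a median of 0.92 beside -0.00. In HFD + Inhib versus HFD + siRNA, 4 were higher and none lower, beside 17.3% and 16.6% of all genes, with a median of 0.74 beside -0.04. Comparisons with HFD share the 4 HFD libraries, and both inhibitor comparisons share the 4 HFD + Inhib libraries.

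**Figure D2:**
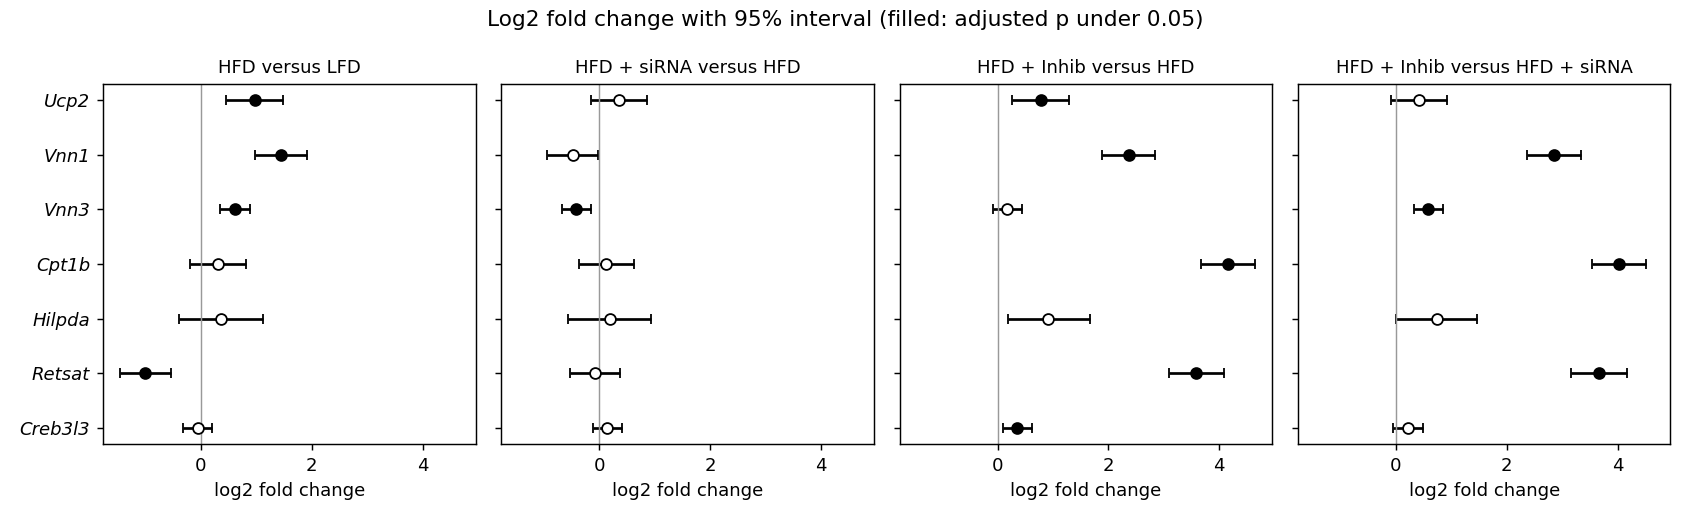
Log2 fold change (horizontal axes) of the 7 genes that passed the filter without the inhibitor libraries, in the 4 comparisons. Points are estimates of edgeR, lines are 95% intervals and filled points have an adjusted p under 0.05. Retsat, Cpt1b and Vnn1 stand between 2.37 and 4.16 in HFD + Inhib versus HFD, and no gene leaves the range from -0.48 to 0.36 in HFD + siRNA versus HFD.

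Retsat encodes retinol saturase, which reduces all-trans-retinol to dihydroretinol. Retsat stood at 174, 254, 366 and 212 CPM in the LFD libraries and at 125, 118, 142 and 120 CPM in the HFD libraries. All HFD libraries lay under all LFD libraries, and Retsat in HFD was 0.501 times its LFD level (SE 0.21 on the log2 scale, adjusted p = 0.00483). The HFD + siRNA libraries held 92.8, 146, 95.9 and 143 CPM and overlapped HFD (log2 fold change -0.08 ± 0.21, adjusted p = 0.857). With the inhibitor, Retsat reached 1788, 1742, 1229 and 1318 CPM. This was 12.1-fold above HFD (log2 fold change 3.59 ± 0.23, adjusted p = 3.5e-08) with no overlap, and 3.67 ± 0.23 above HFD + siRNA on the log2 scale (adjusted p = 2.2e-08). Retsat was thus the most abundant of the 10 genes with the inhibitor and lower on the HFD than on the LFD.

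Vnn1 and Vnn3 lie next to each other on chromosome 10 and encode vanins, membrane-bound pantetheinases that split pantetheine into pantothenic acid and cysteamine. Vnn1 stood at 8.80, 23.3, 25.0 and 21.4 CPM in LFD and at 50.2, 56.8, 49.4 and 56.9 CPM in HFD. It was higher in every HFD library (log2 fold change 1.44 ± 0.22, adjusted p = 5.3e-04). The HFD + siRNA libraries held 37.6, 43.2, 30.8 and 41.0 CPM of Vnn1, each under every HFD library, at -0.48 ± 0.21 on the log2 scale. That difference did not pass (adjusted p = 0.152), but it did when only these 2 groups were fitted (-0.49, adjusted p = 0.0172). In HFD + Inhib, Vnn1 reached 281, 284, 248 and 287 CPM, with no overlap with HFD (log2 fold change 2.37 ± 0.22, adjusted p = 2.3e-06) or with HFD + siRNA (2.85 ± 0.22, adjusted p = 2.4e-07).

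Its neighbour Vnn3 moved over a narrower range. Vnn3 stood at 31.4, 43.9, 43.7 and 41.8 CPM in LFD and at 59.3, 57.2, 66.2 and 64.2 CPM in HFD. Vnn3 rose in HFD without overlap (log2 fold change 0.62 ± 0.12, adjusted p = 0.0032). In HFD + siRNA it was 45.3, 47.7, 51.5 and 41.5 CPM, each under every HFD library, and the decrease of 0.41 on the log2 scale passed (log2 fold change -0.41 ± 0.12, adjusted p = 0.0384). That call was lost without a filter (adjusted p = 0.0517) and without HFD replicate 1, 3 or 4 or HFD + siRNA replicate 1 or 4, with adjusted p from 0.062 to 0.112. In HFD + Inhib, Vnn3 was 59.6, 60.8, 80.3 and 77.9 CPM and overlapped HFD (0.18 ± 0.12, adjusted p = 0.353), and it was above HFD + siRNA without overlap (0.58 ± 0.12, adjusted p = 0.00167). Whether the inhibitor's difference from HFD was unlike in the vanin pair was not tested.

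Cpt1b is the muscle form of the outer mitochondrial enzyme that commits long-chain fatty acids to import for oxidation. Cpt1b stood at 1.89, 2.65, 3.55 and 1.19 CPM in LFD, at 3.15, 2.67, 2.85 and 2.93 CPM in HFD and at 2.78, 3.02, 3.21 and 3.63 CPM in HFD + siRNA. These 3 groups overlapped, with adjusted p-values of 0.378 for HFD versus LFD and 0.76 for HFD + siRNA versus HFD. With the inhibitor, Cpt1b reached 57.0, 44.1, 45.7 and 60.3 CPM, 4.16 ± 0.23 above HFD on the log2 scale (adjusted p = 4.0e-09) and 4.03 ± 0.22 above HFD + siRNA (adjusted p = 4.9e-09). The liver form Cpt1a was 516 ± 52.8 CPM in HFD and 598 ± 71.2 CPM in HFD + Inhib, a log2 fold change of 0.21 ± 0.10 that did not pass (adjusted p = 0.169). Cpt1a was higher in HFD than in LFD (0.72 ± 0.10, adjusted p = 3.3e-04), the comparison in which Cpt1b did not pass.

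Ucp2 and Ucp3 are neighbours on chromosome 7 and encode carriers of the inner mitochondrial membrane. Ucp2 stood at 12.8, 16.2, 20.5 and 17.2 CPM in LFD and at 31.3, 43.1, 26.8 and 29.4 CPM in HFD. It rose in HFD without overlap (log2 fold change 0.97 ± 0.24, adjusted p = 0.0112, which does not pass a threshold of 0.01). In HFD + siRNA it was 25.7, 39.2, 58.3 and 44.9 CPM (0.36 ± 0.23 against HFD, adjusted p = 0.341). In HFD + Inhib it was 39.6, 53.2, 54.4 and 77.4 CPM, overlapping HFD, with a log2 fold change of 0.78 ± 0.23 (adjusted p = 0.0277). That call was lost without HFD replicate 1, 3 or 4 or HFD + Inhib replicate 4 (adjusted p from 0.0693 to 0.106). Against HFD + siRNA the difference of 0.42 ± 0.23 did not pass (adjusted p = 0.176). Ucp2 is also made in macrophages, whose 13 markers, led by Clec4f, summed to 381 CPM in HFD and 302 ± 47.8 CPM in HFD + Inhib. Of these markers none was higher and 2 were lower in HFD + Inhib versus HFD, where 9.80% and 8.42% of all genes were. Against HFD + siRNA none was higher and 8 of the 13 were lower, where 17.3% and 16.6% of all genes were. The part of these markers in the level of Ucp2 was not tested.

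Ucp3 was close to absent in 3 groups. The LFD libraries held 0, 0, 2 and 0 counts, the HFD libraries 0, 3, 1 and 1, and the HFD + siRNA libraries 2, 5, 3 and 0. The HFD + Inhib libraries held 164, 55, 177 and 170 counts, or 5.79, 2.14, 5.73 and 5.10 CPM. Scaled for depth, the 566 counts of HFD + Inhib were 116-fold the 5 counts of HFD (95% interval 49.4 to 358, which covers counting error only) and 58.3-fold the 10 counts of HFD + siRNA (31.5 to 122). Because the other groups hold so few counts, 1 library moves these folds: the fitted log2 fold change of Ucp3 went from 6.70 to 7.36 without HFD replicate 2 and, against HFD + siRNA, from 5.75 to 6.37 without HFD + siRNA replicate 2. Replicate 2 held the fewest Ucp3 counts of the inhibitor libraries and still stood above every library of the other groups. The relative Ucp1, the uncoupling protein of brown fat, had 2 counts over the LFD libraries and was listed at 0 in all others.

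Fabp3, which carries fatty acids in heart and muscle cells, followed the same outline. It had 6, 7 and 4 counts in all in LFD, HFD and HFD + siRNA, with no library over 0.117 CPM. The HFD + Inhib libraries held 11.2, 3.34, 3.69 and 5.07 CPM. Their 686 counts were 100-fold those of HFD (48.4 to 250, counting error only) and 177-fold those of HFD + siRNA (68.7 to 650). The latter rests on 4 counts, and without HFD + siRNA replicate 1 the fitted log2 fold change went from 7.30 to 8.58. Replicate 1 was the highest of the inhibitor libraries, and none of the 4 overlapped another group. The fit of all genes gave log2 fold changes against HFD of 6.54 ± 0.64 for Fabp3 and 6.70 ± 0.60 for Ucp3 (adjusted p = 3.4e-06 and 1.6e-06), from which nothing is read because both passed the filter only through the inhibitor libraries. Of the sequence words of 50 bases in Fabp3 transcripts, 29.2% also occur in the pseudogene Fabp3-ps1, so reads may be divided between the pair. The pseudogene was listed at 0.396 ± 0.216 CPM in HFD + Inhib.

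Otop1 encodes a proton-selective channel. It was chosen for its pattern, so its values carry no test. All LFD and all HFD + siRNA libraries held 0 counts, and 1 count was found in HFD, in replicate 2. The HFD + Inhib libraries held 981, 283, 509 and 999 counts, with a mean of 23.0 ± 11.1 CPM. Against a floor of 3 counts over the group, the 2772 counts of HFD + Inhib were at least 903-fold higher than LFD and at least 952-fold higher than HFD + siRNA. Against HFD the ratio was 2837, a value that rests on 1 count and from which nothing is read. The relatives Otop2 and Otop3 were near 0 in all groups: Otop2 had 1 count in HFD + Inhib and Otop3 had 1 in LFD and 2 in HFD + siRNA. The neighbour Tmem128 did not pass in HFD + Inhib versus HFD (0.20, adjusted p = 0.286), and the neighbour Drd5 was listed at 0 in every library.

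Hilpda, a small lipid droplet protein that inhibits the lipase ATGL, was low throughout. It stood at 1.59, 0.896, 1.73 and 1.19 CPM in LFD, at 1.46, 2.62, 1.44 and 1.37 CPM in HFD and at 1.61, 1.86, 2.06 and 2.40 CPM in HFD + siRNA. With the inhibitor, Hilpda stood at 1.73, 5.83, 3.63 and 2.10 CPM and overlapped HFD. The log2 fold change against HFD was 0.92 ± 0.34 and did not pass (adjusted p = 0.0676). It passed with DESeq2 (0.94, adjusted p = 0.0354), without HFD replicate 2 (1.21, adjusted p = 0.0327), without HFD + Inhib replicate 1 (1.13, adjusted p = 0.0276) and without HFD + Inhib replicate 4 (1.10, adjusted p = 0.0445). Without HFD + Inhib replicate 2, the highest library, it was 0.51 (adjusted p = 0.288). No other comparison of Hilpda passed.

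Creb3l3 was among the steadiest of the set. It stood at 195, 192, 238 and 173 CPM in LFD, at 205, 193, 171 and 201 CPM in HFD and at 219, 201, 221 and 210 CPM in HFD + siRNA. The HFD + Inhib libraries held 292, 270, 189 and 239 CPM and overlapped HFD. The log2 fold change of 0.36 ± 0.12 lay at the threshold (adjusted p = 0.04997). It was lost without a filter (adjusted p = 0.0651), with only the 2 groups fitted (0.0874), with the replicate block (0.0685) and in 7 of 8 fits that left out 1 library. Against HFD + siRNA the difference of 0.22 ± 0.12 did not pass (adjusted p = 0.18), but did with offsets for GC content and length (0.44, adjusted p = 0.00149) and without HFD + Inhib replicate 3 (0.33, adjusted p = 0.0324).

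Levels of different genes can be set side by side only per length. With the transcript of median length in GENCODE M21, HFD + Inhib held 1263 CPM per kb of Retsat, 114 of Vnn1, 108 of Creb3l3, 75.6 of Ucp2, 38.5 of Vnn3 and 17.9 of Cpt1b. Otop1 stood at 7.33 CPM per kb, Fabp3 at 7.08, Hilpda at 3.38 and Ucp3 at 1.92. The transcript taken matters for Ucp2 and Retsat: with the longest one, a choice added after these levels had been seen, Ucp2 was 14.1 and Retsat 502 CPM per kb, so that Ucp2 came after Cpt1b. In HFD the same scale with the median transcript gave 105 for Retsat, 83.9 for Creb3l3, 43.9 for Ucp2, 34.1 for Vnn3, 22.1 for Vnn1 and 1.75 for Hilpda, with Cpt1b below Hilpda. With the longest transcript, Retsat was 41.6 and Ucp2 8.18 CPM per kb in HFD, so that Retsat came after Creb3l3 and Ucp2 after both vanins. Vnn1 thus stood under Vnn3 in HFD and above it in HFD + Inhib.

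The start sites of genes that moved by such different amounts are shown for Ucp3, which was close to absent without the inhibitor, for Creb3l3, a liver gene that hardly moved, and for Otop1. The sequences are the 250 bases before the annotated start, from RefSeq on build GRCm38.p6, written 5′ to 3′ on the strand of the gene. RefSeq promoters were found for 8 of the 10 genes, all but Vnn1 and Cpt1b. PPAR and RXR are known to bind a direct repeat of AGGTCA spaced by 1 base, AGGTCANAGGTCA, which was searched on both strands with up to 2 mismatches in its 12 fixed letters, in windows that also hold the 50 bases after the start. Capitals mark a match.
Ucp3 (chr7:100472741-100472990, plus strand): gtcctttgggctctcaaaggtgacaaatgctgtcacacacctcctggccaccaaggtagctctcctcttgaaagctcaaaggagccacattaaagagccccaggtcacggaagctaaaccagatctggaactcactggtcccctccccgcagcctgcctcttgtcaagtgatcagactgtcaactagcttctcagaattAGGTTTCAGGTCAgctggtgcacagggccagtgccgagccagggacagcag
Creb3l3 (chr10:81092592-81092841, minus strand): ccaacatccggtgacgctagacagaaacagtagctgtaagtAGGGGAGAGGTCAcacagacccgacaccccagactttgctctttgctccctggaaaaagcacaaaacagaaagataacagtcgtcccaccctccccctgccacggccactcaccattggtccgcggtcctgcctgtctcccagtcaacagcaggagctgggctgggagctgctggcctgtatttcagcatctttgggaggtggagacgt
Otop1 (chr5:38277154-38277403, plus strand): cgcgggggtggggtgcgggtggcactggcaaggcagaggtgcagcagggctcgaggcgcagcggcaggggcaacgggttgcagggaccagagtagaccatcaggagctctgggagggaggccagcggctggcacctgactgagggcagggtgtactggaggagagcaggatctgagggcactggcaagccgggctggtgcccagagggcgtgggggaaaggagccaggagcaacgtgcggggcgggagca
Ucp3 held a match 51 bases before its start and Creb3l3 held one 209 bases before the start shown, each with 2 mismatches. Creb3l3 has 2 annotated starts, of which the one shown lies downstream, and no match was found in the window of the upstream one. No match at this limit was found in the windows of Ucp2, Vnn3, Hilpda, Fabp3, Retsat and Otop1. Of 32851 mouse promoters in windows of the same 250 bases before and 50 after the start, 3.86% held such a match. A match in letters is a description and not a binding site.

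Neighbouring genes were examined because several of the set lie close together. Cpt1b lies beside Chkb, a choline kinase, which was 31.2 ± 2.57 CPM in HFD and 65.6 ± 2.80 in HFD + Inhib (log2 fold change 1.07 ± 0.11, adjusted p = 6.9e-06). Both neighbours of Retsat were higher with the inhibitor as well: Elmod3 by 1.15 ± 0.14 (adjusted p = 2.8e-05) and Tgoln1, a trans-Golgi protein, by 0.77 ± 0.09 (adjusted p = 1.3e-05). Serinc2, on one side of Fabp3, was higher by 2.14 ± 0.25 (adjusted p = 1.7e-05), and Snrnp40 on the other did not pass (0.09, adjusted p = 0.639). The changes of Chkb, Elmod3 and Tgoln1 were smaller than those of Cpt1b and Retsat beside them. C2cd3 beside Ucp3 (0.02, adjusted p = 0.87), Slc18b1 beside Vnn3 (0.14, adjusted p = 0.516), Impdh1 beside Hilpda (-0.16, adjusted p = 0.631) and Thop1 and Map2k2 beside Creb3l3 (0.11 and 0.01, adjusted p = 0.74 and 0.984) did not pass. Dnajb13, Syce3 and Fam71f2 were too low to be tested, and Taar1 was listed at 0. Cpt1b shares 78.6% of its words of 50 bases with the overlapping gene model Gm44502, which held at most 26.83 counts in any library. Zcchc17 overlaps Fabp3 and did not pass (0.20, adjusted p = 0.281). Whether the counting used strand is not given in the sources used here, so reads of overlapping genes cannot be told apart by strand.

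**Figure D3:**
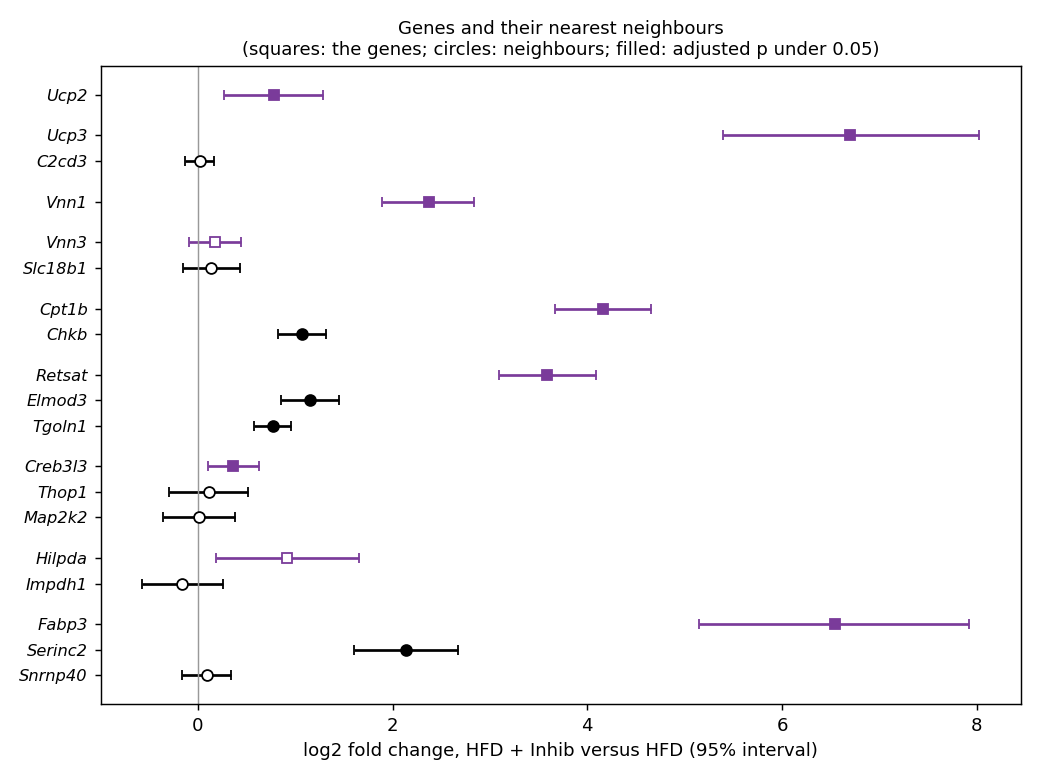
Log2 fold change with 95% interval (horizontal axis) in HFD + Inhib versus HFD for the genes of the set other than Otop1 (squares) and the tested genes nearest to them (circles). Filled symbols have an adjusted p under 0.05. Chkb, Elmod3 and Tgoln1 lie between 0.77 and 1.15, below Cpt1b and Retsat beside them, and Serinc2 lies at 2.14. Ucp3 and Fabp3 passed the filter only through the inhibitor libraries, so nothing is read from their position.

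Other genes of the same pathways give the setting. In HFD + Inhib versus HFD, 9.80% of all genes tested were higher and 8.42% lower, with a median of -0.00, and each list below is to be read against these values. Of 24 tested PPARα targets of β-oxidation, 22 were higher and none lower in HFD + Inhib versus HFD, with a median log2 fold change of 1.13. Ehhadh, the peroxisomal bifunctional enzyme, led with 4.65 ± 0.16 (adjusted p = 4.2e-11), and Pex11a, which divides peroxisomes, rose by 2.39 ± 0.18 (adjusted p = 2.3e-07). Of 28 other PPARα targets, Aqp7 and Cidea passed the filter only through the HFD + Inhib libraries and are left out of the counts, as the genes above were. Of the remaining 26, 24 were higher and none lower, with a median of 1.79, led by the fatty acid ω-hydroxylases Cyp4a31 (5.42 ± 0.23), Cyp4a10 (5.26 ± 0.34) and Cyp4a14 (5.13 ± 0.39). In HFD + siRNA versus HFD, 1 β-oxidation target was higher and 2 lower (median 0.10), and of the others none was higher and 4 were lower (median 0.13), beside 5.20% and 6.55% of all genes and a median of 0.02. The lower ones included Ehhadh (-0.65 ± 0.14, adjusted p = 0.00842) and the malic enzyme Me1 (-1.60 ± 0.22, adjusted p = 6.0e-04). In HFD versus LFD, 9 of the 24 and 10 of the 26 were higher and none lower, beside 9.58% and 8.80% of all genes. In HFD + Inhib versus HFD + siRNA, 21 of the 24 and 21 of the 26 were higher and none lower, with medians of 1.18 and 1.92, beside 17.3% and 16.6% of all genes and a median of -0.04. These lists were written with earlier results of the data known.

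The level of the receptor itself was also compared. Mean levels of Ppara were 273 ± 30.7 CPM (LFD), 478 ± 92.9 CPM (HFD), 437 ± 27.3 CPM (HFD + siRNA) and 586 ± 61.7 CPM (HFD + Inhib). It was higher in HFD than in LFD (log2 fold change 0.81 ± 0.13, adjusted p = 7.6e-04) and did not pass in HFD + Inhib versus HFD (0.29 ± 0.13, adjusted p = 0.12), but was higher in HFD + Inhib than in HFD + siRNA without overlap (0.42 ± 0.13, adjusted p = 0.0165). Of 14 receptors and partners, 1 was higher (Hdac3, 0.35 ± 0.08, adjusted p = 0.00443) and 1 lower (Rxrg, -0.48 ± 0.16, adjusted p = 0.0438) in HFD + Inhib versus HFD, with a median of -0.06. Against HFD + siRNA, 2 were higher and 4 lower, with a median of -0.03, beside 17.3% and 16.6% of all genes and a median of -0.04.

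Among 15 tested relatives of the set, 4 were higher and 1 lower with the inhibitor (all genes, 9.80% and 8.42%), with a median of 0.21. Fatty acid binding proteins were among both: Fabp7 was lower (-0.96 ± 0.29, adjusted p = 0.0265), while Fabp4 rose by 3.30 ± 0.24 (adjusted p = 2.3e-07), Fabp5 by 3.08 ± 0.56 (adjusted p = 0.00119) and the abundant liver form Fabp1 by 1.45 ± 0.22 (adjusted p = 2.0e-04). Fabp5 had fallen on the HFD (-3.00 ± 0.56 against LFD, adjusted p = 0.00241), as Retsat had. Of 15 genes of coenzyme A and pantetheine metabolism, the setting of the vanins, 7 were higher and 1 lower, with a median of 0.50. Pank1 and Pank3, kinases that start coenzyme A synthesis from pantothenic acid, rose by 0.88 ± 0.14 (adjusted p = 2.5e-04) and 0.79 ± 0.15 (adjusted p = 0.00132). Csad, an enzyme of taurine synthesis, rose by 1.82 ± 0.36 (adjusted p = 0.00221). The lower gene of this list was Cdo1 (log2 fold change -0.58 ± 0.14, adjusted p = 0.00765).

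Of 14 tested retinoid genes, the setting of Retsat, 2 were higher and 1 lower, with a median of -0.00, shares near those of all genes (9.80% and 8.42%). Rdh11, a retinal reductase, rose by 1.27 ± 0.26 (adjusted p = 0.00254), while Bco1, which cleaves carotene, fell by 1.07 on the log2 scale (SE 0.15, adjusted p = 1.3e-04). Of 11 targets and processing enzymes of CREBH, 1 was higher and 4 were lower, with a median of -0.27, beside 9.80%, 8.42% and -0.00 for all genes. Apoa4 fell by 3.67 on the log2 scale (SE 0.24, adjusted p = 4.5e-08) and Cidec, a lipid droplet protein that is also on the PPARα list, rose by 2.55 ± 0.34 (adjusted p = 7.9e-05). Of 12 lipolysis and hypoxia partners of Hilpda, 7 were higher and none lower, with a median of 0.51. The ATGL gene Pnpla2 rose by 1.09 ± 0.17 (adjusted p = 2.4e-04) and its inhibitor G0s2 by 1.27 ± 0.23 (adjusted p = 9.7e-04).

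Markers of other cell types were summed because Ucp3, Cpt1b, Fabp3 and Otop1 are better known elsewhere. In whole liver, a change in the share of a cell type and a change of RNA per cell cannot be told apart. The 12 skeletal muscle markers summed to 0.420 CPM in HFD and 0.470 CPM in HFD + Inhib, with Mylpf the most abundant and 7 of the 12 at 0 in all inhibitor libraries. The 6 heart markers, led by Tnnt2, summed to 0.771 and 0.562 CPM. For both sums the libraries of HFD and HFD + Inhib overlapped. The 5 brown adipocyte markers, led by Cox7a1, summed to 1.46 and 1.73 CPM. The 6 adipocyte markers summed to 10.8 CPM in HFD and 83.2 ± 25.8 CPM in HFD + Inhib. Of these 6 only Fabp4 and Adrb3, a β-adrenergic receptor, were high enough to be tested. Both were higher in HFD + Inhib versus HFD, where 9.80% of all genes were. Fabp4 went from 6.90 to 68.0 CPM, and Adrb3 from 3.65 ± 0.563 to 15.2 ± 4.71 CPM (log2 fold change 2.05 ± 0.28, adjusted p = 1.0e-04). The other 4 were near 0: over all HFD and all HFD + Inhib libraries, Adipoq had 10 and 5 counts, Plin1 9 and 1, Lep 21 and 0, and Retn 4 and 1. The part of the adipocyte markers in the results above was not tested.

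Hepatocyte markers were abundant in every group, which fits the tissue in the labels. The 10 of them summed to 81900 ± 6998 CPM in HFD and 56068 ± 1814 CPM in HFD + Inhib, with Alb at 50980 and 29925 CPM. Of the 10, 3 were lower and none higher (Ttr by -0.93 ± 0.12, Alb by -0.77 ± 0.13 and Cps1 by -0.53 ± 0.14 on the log2 scale, with adjusted p of 5.6e-05, 7.6e-04 and 0.0146), and 7 did not pass. Of all genes, 8.42% were lower and 9.80% higher in HFD + Inhib versus HFD. In HFD + Inhib versus HFD + siRNA, 7 of the 10 were lower and none higher, with a median log2 fold change of -0.49. Of all genes, 16.6% were lower and 17.3% higher in that comparison. The part of these differences in the results above was not tested. Sums of the remaining lists in HFD and HFD + Inhib were 0.827 and 0.404 CPM for neutrophils, 4.01 and 1.73 for lymphocytes, 354 and 253 for stellate cells, 252 and 236 for endothelial cells and 10.8 and 15.5 for bile duct cells. Of the tested markers, 3 of 6 for lymphocytes and 2 of 5 for stellate cells were lower in HFD + Inhib versus HFD. None passed there for neutrophils (2 tested), endothelial cells (4) or bile duct cells (4). Against HFD + siRNA, 2 of 6 for lymphocytes, 2 of 5 for stellate cells and 1 of 4 for endothelial cells were lower.

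**Figure D4:**
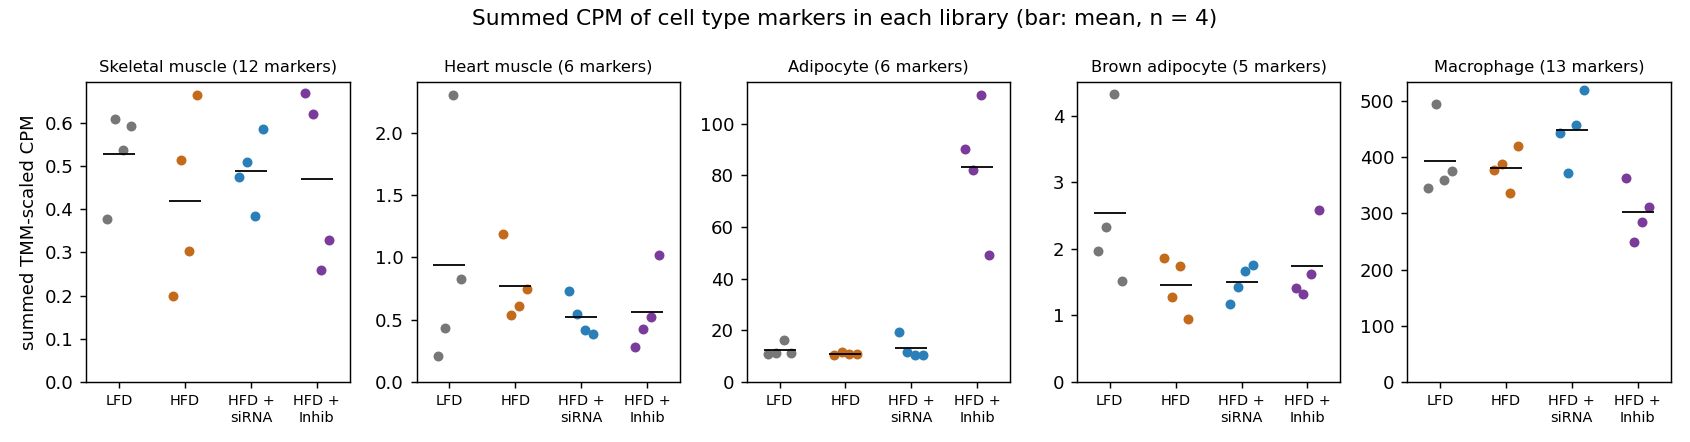
Summed TMM-scaled CPM of 5 marker lists (vertical axes, from 0) in each library of the 4 groups (horizontal axes), with the mean as a bar. Skeletal and heart muscle sums stay at or below 2.30 CPM in every library, and the adipocyte sum is higher in HFD + Inhib, where Fabp4 makes up 68.0 of 83.2 CPM.

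The genes most alike in pattern were sought over the 16 libraries, by the root mean square difference of centred log2 CPM. Cpt1b was nearest to Acot1, an acyl-CoA thioesterase (0.35), and Slc27a1, a fatty acid transporter (0.38). Vnn1 was nearest to the fatty acid receptor Cd36 (0.47) and the acyltransferase Gpat3 (0.49). Cd36 had mean levels of 31.6 CPM (LFD), 109 CPM (HFD), 94.4 CPM (HFD + siRNA) and 443 CPM (HFD + Inhib), the same order of groups as Vnn1. Fabp3 was nearest to Ehhadh (0.59) and Cyp4a14 (0.62), and Ucp3 to Gm36203 (0.47) and Cyp4a10 (0.57), but both genes are near 0 in 12 libraries and the order depends on the prior count. With a prior count of 0.5 in place of 2, Scnn1g was nearest to Fabp3 (1.08) and Ehhadh was no longer among its nearest 3, nor was Cyp4a10 among those of Ucp3. Retsat was nearest to Meig1 and Gm36848 (both 0.52), which are low, and then to Hsd17b11 (0.55), at 122 CPM in HFD and 823 in HFD + Inhib. With the prior count of 0.5, Hsd17b11 came first (0.55), followed by Acot1 and Serinc2 (both 0.59), so that 1 of 3 was shared. Otop1 had no close match, with Gm15441 at 0.92 and Cyp4a31 at 1.10, and with the prior count of 0.5 Gm15441 stayed first (1.29) while Cyp4a31 left the nearest 3. Ucp2 was nearest to Anxa2 (0.34) and Hilpda to Mrap (0.33), with group means of Ucp2 and Hilpda that spanned 1.73 and 1.14 on the log2 scale. Group means of Vnn3 and Creb3l3 spanned only 0.79 and 0.35 on the log2 scale, so no match was sought.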

How the data were processed

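The authors deposited expected counts per gene symbol, estimated with RSEM after STAR alignment to mm39 per the labels (versions not given in the sources used here). The paper's methods name HTG EdgeSeq, which counts probes, and this mismatch with RSEM values was not resolved. Of the deposited values, 15.1% are not whole; they were rounded. Genes were filtered with filterByExpr (minimum count 10, minimum total 15), leaving 18335 of 33142 with any count, and scaled by TMM. One edgeR 4.0.16 quasi-likelihood fit (R 4.3.3) of the 16 libraries gave 4 comparisons, with Benjamini-Hochberg adjusted p-values over all genes tested and a threshold of 0.05. The scripts were tested on simulated data. Totals of 24317111 to 35820234 per library set the precision, and p-values measure only the spread between these libraries.

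The genes, lists and tests were chosen with earlier results of these data known. Named genes are Khk, the 10 genes, Ppara, up to 3 called genes with the largest change per list, the top marker genes, neighbours, and the 3 most similar genes. Ucp1, Otop2, Otop3, Fabp7, Fabp3-ps1, Adipoq, Adrb3, Plin1, Lep, Retn, Ttr, Cps1 and Cdo1 fall outside this rule and were named after their values were seen. Alternatives were DESeq2 1.42.0, RLE scaling, other filters, 2-group fits, the replicate block, each library left out, offsets for GC content and length, and an adjusted p under 0.01. A version of the offsets and of the levels per kb with the longest transcript was added after the results had been seen, because the transcript of median length was short for Ucp2 (0.743 kb) and Retsat (1.20 kb); both versions are given. The files use mm39 and the reference GRCm38: positions of GRCm38 give the order of neighbouring genes and the promoter windows, which are printed with that build, and were joined to no position of the files. The most similar genes were also sought with a prior count of 0.5.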

Additional observations from a re-analysis of the deposited data

Results flagged for a closer look

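In 36 groups of 4 libraries, 3 held a library whose gap to the others exceeded Dixon's critical value of 0.829, and chance alone is expected to give about 1 in 20. Vnn1 was 248 CPM in HFD + Inhib replicate 3, against 281 to 287 CPM in the others of the group. Vnn3 was 31.4 CPM in LFD replicate 1, against 41.8 to 43.9 CPM. Hilpda was 2.62 CPM in HFD replicate 2, against 1.37 to 1.46 CPM, and without that library the inhibitor difference of Hilpda was 1.21 on the log2 scale (adjusted p = 0.0327 by edgeR).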

How the results depend on the processing

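Of 476 values of log2 fold change of the 7 genes under the alternatives, 432 kept direction and call, 24 lost the call, 10 gained it and 10 reversed. With an adjusted p under 0.01, all genes called in the 4 comparisons, in the order given above, were 1287, 689, 1733 and 3711 in place of 3370, 2154, 3339 and 6204, and of the 7 genes the number called fell from 4 to 3 for HFD versus LFD, where Ucp2 was lost, to 0 for HFD + siRNA versus HFD and to 3 for the inhibitor against HFD. In HFD + siRNA versus HFD, 0 of the 7 were called without a filter, 2 with only the 2 groups fitted, and 1427 genes of all with offsets from the longest transcript. Leaving out 1 library gave 2001 to 3691 genes called in HFD versus LFD and 1100 to 1981 in HFD + siRNA versus HFD, with 0 to 1 of the 7 called in the latter and 3 to 5 in HFD + Inhib versus HFD. Every reversed value lay in a difference that had not passed. Leaving out 1 library gave -0.29 to 0.71 for Fabp3 and -0.11 to 0.05 for Creb3l3 in HFD versus LFD. For Retsat it gave -0.21 to 0.02 in HFD + siRNA versus HFD. Fabp3 had only 6 counts over the LFD libraries and 7 over the HFD libraries. Offsets for GC content and length gave 0.14 for Creb3l3 in HFD versus LFD and -0.01 in HFD + siRNA versus HFD. With the longest transcript, an alternative chosen after seeing the data, these were 0.13 and -0.01, Cpt1b was -0.01 and Hilpda -0.04 in HFD + siRNA versus HFD, and Ucp2 passed for the inhibitor against the siRNA group (0.64, adjusted p = 0.0455), which it did not with the transcript of median length. The cause of these changes was not tested. Libraries share only a replicate number: 6 of 24 correlations of the deviations of same-numbered libraries were over 0.1 (-0.132 to 0.336), and in 12 of 24 the same number was the best match of 4, a hint from the data and not from the design. The replicate block changed 1 call, that of Creb3l3 in HFD + Inhib versus HFD (0.36, adjusted p = 0.0685). A minimum of 10 counts in every library left out Ucp3, Fabp3 and Otop1. With 1 library left out, the log2 fold change with the inhibitor was 6.32 to 7.36 for Ucp3 and 6.00 to 6.97 for Fabp3 against HFD, and 5.32 to 6.37 and 6.79 to 8.58 against HFD + siRNA. Mean CPM in HFD + Inhib with 1 library left out was 4.32 to 5.54 for Ucp3, 4.03 to 6.65 for Fabp3 and 19.1 to 27.0 for Otop1. Counting Aqp7 and Cidea, 26 of 28 other PPARα targets were higher in HFD + Inhib versus HFD, with a median of 2.09; the count without them was added after seeing the data.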
